A study of Rattus norvegicus with 4 samples.

Results

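The annexins are a family of proteins that bind acidic membrane lipids when calcium is present. Their signals were examined here in rat myometrium, the layer of smooth muscle that contracts in the uterus, after estradiol. All probe sets whose only gene symbol in the platform annotation was Anxa1, Anxa2, Anxa3, Anxa4, Anxa5, Anxa6 or Anxa7 were taken. This gave 11 probe sets of 7 genes among 8799 probe sets on the array. None of the symbols Anxa8, Anxa9, Anxa10, Anxa11 and Anxa13 was the only symbol of a probe set, so these 5 genes were not analysed here. The 4 groups were estradiol benzoate at 24 h, vehicle control at 24 h, estradiol benzoate at 6 h and vehicle control at 6 h. All animals were 60 days old and had lost their ovaries a week before, so ovarian steroids were withdrawn in every group, controls included. Estradiol benzoate, an ester that releases estradiol, was given under the skin at 10 µg per kg of body weight. Each group was measured on 1 Affymetrix RG_U34A array carrying RNA pooled from 6 animals. There is therefore no replicate error, and a difference between 2 arrays compares 2 pools and has no test. The number of arrays limits the precision.

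Annexins are built from repeats of a conserved fold that holds calcium on its convex face, and the short amino-terminal tail in front of the repeats differs between members and binds their partners. Anxa1 is known as a glucocorticoid-induced protein that restrains inflammation and cytosolic phospholipase. Anxa2 forms a complex with S100a10 that carries tissue plasminogen activator and plasminogen at the cell surface. Anxa4 is abundant in secretory epithelia, Anxa5 covers exposed phosphatidylserine, and Anxa6, which carries a doubled set of repeats, is abundant in muscle. Anxa3 is known from neutrophils and Anxa7 from secretory granules, where the calcium-binding protein sorcin binds it. In smooth muscle, annexins move to the membrane when calcium rises during contraction.

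The values are signals, the brightness that the MAS5 method gives a probe set after it subtracts mismatch probes, scaled to a common trimmed mean of 500. A floor was set at the 40th percentile of each array, 90.9 for estradiol and 102 for control at 24 h, and 103 for the estradiol label and 109 for the control label at 6 h. A probe set was called at a log2 difference of 1 or more in size (2-fold), with the brighter array above its floor. With the dimmer array under its floor, the floor stood in for it and the fold is given as at least that large. No fold is given when that value was under 1. Signals of different probe sets are not on a common scale and are not set against each other. The 24 h pair and the 6 h pair were scanned on different days, so the day of scanning cannot be told apart from time. The instrument log for control at 24 h records an error of the wash station. The 9 smooth muscle markers found on the array, among them Acta2 and Myh11, were above the floor on all 4 arrays. The 4 check genes that estrogen is known to induce in the uterus, Igf1, Pgr, S100g and Hsd11b2, were read by their brightest probe sets. All were called higher with estradiol at 24 h, with a median log2 difference of 2.32. They were all called lower on the array labelled estradiol at 6 h, with a median of -3.24. Not every other probe set of Igf1 and Pgr was called at either time. At 24 h the Igf1 probe set M15481_at was lower with estradiol, at -0.28, while the other Igf1 probe sets were higher. The check genes go against the labels at 6 h, and 6 h directions are given for the arrays as labelled.

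Promoters are shown for the 4 members that had a probe set past 2-fold in any comparison, so that the sequence in front of each can be read beside its values. RefSeq's table of the rat assembly GRCr8 held 6 of the 7 members, and each sequence runs from 250 bases before the start to 50 bases after it on the strand of the gene. The Anxa4 window is chr4:120798464-120798763 on the minus strand, the Anxa1 window chr1:227303683-227303982 on the minus strand, the Anxa2 window chr8:78986002-78986301 on the plus strand and the Anxa5 window chr2:121272647-121272946 on the minus strand. Capitals mark GGTCA and its complement TGACC, each 1 arm of the estrogen response element. They also mark the Sp1 box, GGGCGG and its complement CCGCCC, the box with the letters CCAAT and its complement ATTGG, and the box of the TATA type, with the letters TATAAA and the complement TTTATA.
Anxa4: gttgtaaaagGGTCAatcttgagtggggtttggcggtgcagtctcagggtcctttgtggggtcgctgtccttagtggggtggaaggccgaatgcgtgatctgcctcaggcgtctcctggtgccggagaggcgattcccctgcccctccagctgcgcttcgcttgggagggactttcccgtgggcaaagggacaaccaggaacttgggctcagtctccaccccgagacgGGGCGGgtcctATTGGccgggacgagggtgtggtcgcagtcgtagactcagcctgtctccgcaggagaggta
Anxa1: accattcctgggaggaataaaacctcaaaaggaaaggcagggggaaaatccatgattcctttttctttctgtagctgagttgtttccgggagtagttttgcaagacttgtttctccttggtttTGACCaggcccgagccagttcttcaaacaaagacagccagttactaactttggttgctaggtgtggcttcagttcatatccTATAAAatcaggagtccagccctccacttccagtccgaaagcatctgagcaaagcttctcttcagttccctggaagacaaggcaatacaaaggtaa
Anxa2: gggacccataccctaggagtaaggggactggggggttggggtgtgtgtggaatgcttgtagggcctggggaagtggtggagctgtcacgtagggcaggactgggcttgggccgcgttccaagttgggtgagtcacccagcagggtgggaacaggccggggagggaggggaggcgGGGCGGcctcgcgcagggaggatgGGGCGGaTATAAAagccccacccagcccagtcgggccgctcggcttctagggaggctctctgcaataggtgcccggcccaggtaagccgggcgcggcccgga
Anxa5: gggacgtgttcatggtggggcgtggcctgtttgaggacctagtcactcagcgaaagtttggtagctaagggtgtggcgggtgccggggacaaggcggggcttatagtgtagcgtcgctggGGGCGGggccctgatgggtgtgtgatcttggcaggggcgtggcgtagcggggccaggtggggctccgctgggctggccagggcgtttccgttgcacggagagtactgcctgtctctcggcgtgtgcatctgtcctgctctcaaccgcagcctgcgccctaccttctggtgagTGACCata

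The full estrogen response element, GGTCA and TGACC with 3 bases between them, was in 0 of the 6 annexin windows and in 0.0269% of all 33469 windows, so its absence says only that these letters are not in these stretches. A single arm, read on both strands, was in the windows of Anxa1, Anxa4 and Anxa5, that is 3 of 6, against 40.5% of all windows. The Anxa1 arm TGACC began at position -127 and the Anxa4 arm GGTCA at -240, counted with the first base of the start as 0. The Anxa5 arm TGACC began at 42, after the start. TATAAA began at -46 in Anxa1 and at -45 in Anxa2, and a TATA box was in 14.2% of all windows. Anxa4 and Anxa5 held no TATA box, and each held an Sp1 box, as did Anxa2, Anxa3 and Anxa7. An Sp1 box was in 33.1% of all windows. The letters TGANTCA (an AP-1 site) were in the Anxa2 window alone among the 6, beginning at -123, against 7.33% of all windows. These matches describe the letters only.

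Of the 7 genes, Anxa1, Anxa2, Anxa5 and Anxa6 had a probe set above the floor on all 4 arrays, 6 probe sets in all. The other 5 probe sets, those of Anxa3, Anxa4 and Anxa7 and the second of Anxa6, were above the floor on some arrays only. None of the 11 was under the floor everywhere.

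**Figure D1:**
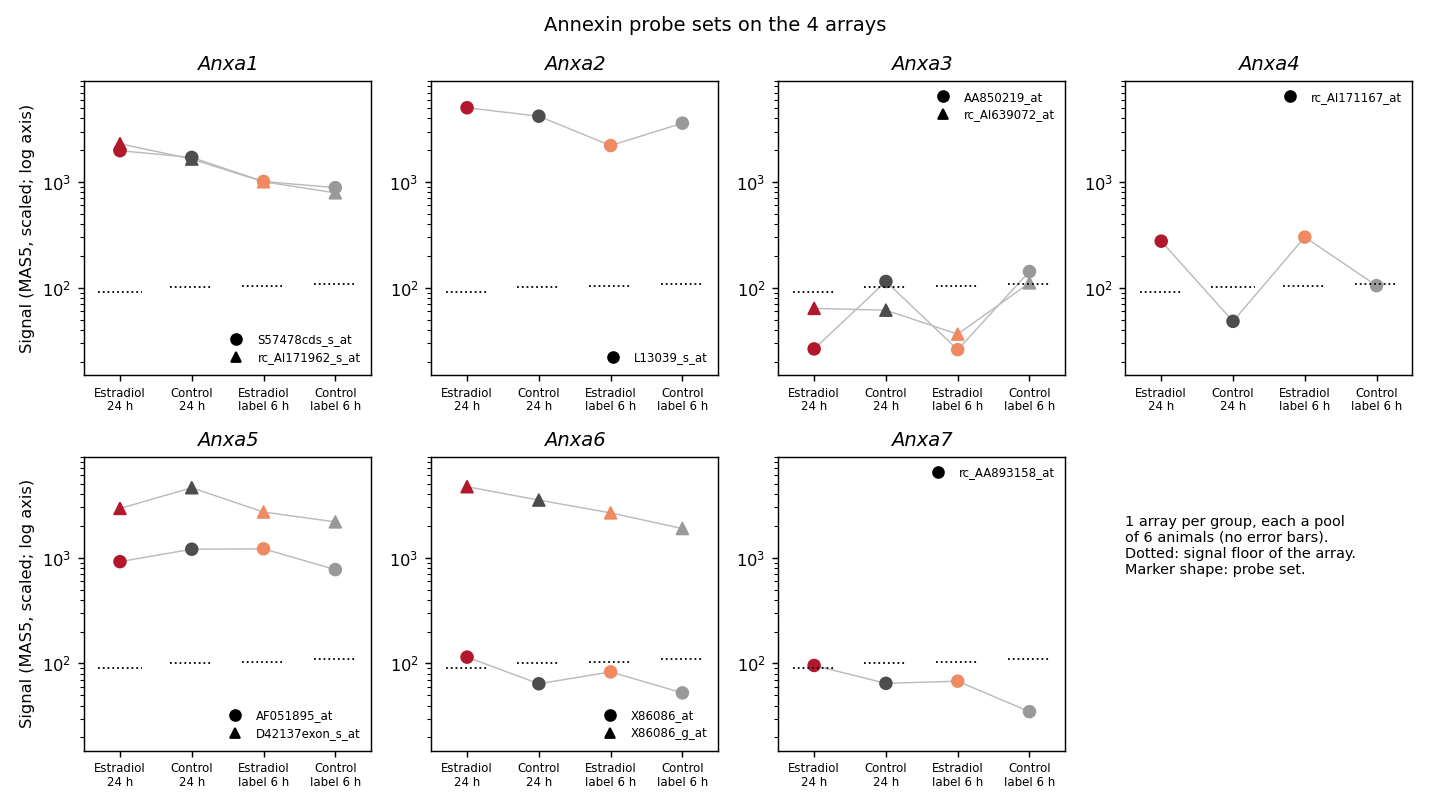
Signal of each annexin probe set (log axis, scaled MAS5 units) on the arrays of estradiol at 24 h, control at 24 h, the estradiol label at 6 h and the control label at 6 h, with marker shape for the probe set and a dotted line for the floor of each array; there is 1 array per group and no error bar. Anxa4 stands above the floor on both arrays labelled estradiol and under it on both controls, while both Anxa1 probe sets are highest with estradiol at 24 h and lowest with the control label at 6 h.

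Estradiol was set against control at 24 h to ask which annexins differed a day after treatment. Anxa4 alone was called, higher with estradiol by at least 2.70-fold, while the 6 probe sets of Anxa1, Anxa2, Anxa5 and Anxa6 above the floor on all arrays stayed within 1.57-fold of the control. Of 9 annexin probe sets that could be compared, 1 was called higher and 0 lower, against 9.1% higher and 8.89% lower among all 5690 probe sets compared. This count is near that background and is not a result about the family. The median log2 difference of the 6 probe sets measured on both arrays was 0.24, against -0.16 for all 4719 such probe sets. The array labelled estradiol at 6 h was set against the array labelled control at 6 h for the early response, and again Anxa4 alone was called, higher by at least 2.76-fold. Of 9 comparable probe sets 1 was called higher and 0 lower, against 7.46% and 5.87% of 5687. The median of the 6 measured on both arrays was 0.33, against -0.02 for all 4756.

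Anxa4, which self-associates on membranes and is known from epithelial secretory cells, was measured by 1 probe set. The probe set rc_AI171167_at read 276 with estradiol against 48.1 without it at 24 h, and 301 with the estradiol label and 105 with the control label at 6 h. Both arrays labelled estradiol were above their floors and both controls were under theirs. At 6 h the control label was only just under, at 105 against a floor of 109. The share of all probe sets with this split was not counted. The log2 difference was at least 1.44 at 24 h and at least 1.46 at 6 h. The 2 comparisons share no array. Among 5280 probe sets that could be compared at both times, 32, or 0.606%, were called higher with the estradiol label at both, and Anxa4 was among them. Called higher at a single time were 9.1% at 24 h and 7.46% at 6 h, so a small share at both is no evidence that the calls agree. Anxa4 was looked up here because it was called, and the count rests on the 6 h labels. Another 8, or 0.152%, were called lower at both. A larger number, 212, or 4.02%, were called in opposite directions at the 2 times, as Igf1, Pgr, S100g and Hsd11b2 were. Between the arrays labelled estradiol Anxa4 was 1.09-fold lower at 24 h than at 6 h, a log2 difference of -0.13, and with arrays scaled to a common median it was 0.08, of the opposite sign. The treatment differences of 1.44 at 24 h and 1.46 at 6 h are both bounds set by the floor, so their sizes cannot be compared. With the floor at the 20th percentile they were 2.52 at 24 h and 1.53 at 6 h. With the floor at the 60th percentile, which lies between 232 and 267, the Anxa4 difference shrank to 0.13 at 24 h and 0.22 at 6 h and was not called, so the call rests on signals in the lower part of the range.

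In the limma fit of all 4 arrays, with treatment and time as terms and 1 residual degree of freedom, the treatment effect of Anxa4 was 1.45 ± 0.34 on the log2 scale (SE). Anxa4 entered this fit only through the arrays labelled estradiol, and both controls were set to the floor, so the effect is a bound and its SE and p rest on floor values. The unadjusted p was 0.0126 and the Benjamini-Hochberg adjusted p over all 6157 probe sets tested with limma was 0.999. The other 10 annexin probe sets had unadjusted p-values for treatment between 0.248 and 0.901. Limma called 0 of 6157 probe sets for treatment, that is 0%, and 103 had an unadjusted p under 0.05. Opposite differences at the 2 times cancel in this term by its construction.

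The 3 genes whose log2 signals followed those of Anxa4 most closely over the 4 arrays were ranked by the Euclidean distance between signals centred on their own means, out of 2648 genes above the floor on every array. The closest was Lum, the collagen-binding proteoglycan lumican, at a distance of 0.43. Its signal was 2251 with estradiol and 1224 with vehicle at 24 h, and 2575 with the estradiol label and 982 with the control label at 6 h. Akap11, an anchor of protein kinase A, followed at 0.59 and Tcta at 0.62. The distances rest on 4 arrays, and Anxa4 entered at the floor on both controls.

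Anxa3 showed the mirror image in 1 of its 2 probe sets, close to the floor. The probe set AA850219_at read 26.4 with estradiol and 115 with vehicle at 24 h, and 26.0 with the estradiol label and 142 with the control label at 6 h. Both controls were just above their floors and both estradiol labels under theirs. The bounds were at least 1.26-fold lower at 24 h and at least 1.38-fold lower at 6 h, so it was not called. With the floor at the 20th percentile the log2 differences were -2.12 and -2.21, and both were called. The second probe set, rc_AI639072_at, read 63.8 with estradiol and 61.4 with vehicle at 24 h, both under the floor. At 6 h it read 36.4 with the estradiol label and 111 with the control label, just above the floor. The 2 probe sets therefore did not show the same order of arrays, and the Anxa3 values are uncertain.

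Anxa1 was slightly higher with estradiol in both probe sets at both times, always under 1.5-fold. The probe set rc_AI171962_s_at read 2299 with estradiol and 1646 with vehicle at 24 h, and 1004 with the estradiol label and 790 with the control label at 6 h. The probe set S57478cds_s_at read 1976 with estradiol and 1706 with vehicle at 24 h, and 1010 with the estradiol label and 883 with the control label at 6 h. The 4 arrays stood in the same order in both. The log2 differences were 0.48 and 0.21 at 24 h and 0.35 and 0.19 at 6 h, for rc_AI171962_s_at first.

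Anxa6, a regulator of calcium handling in muscle, had the same order of arrays. The probe set X86086_g_at read 4684 with estradiol and 3502 with vehicle at 24 h, and 2651 with the estradiol label and 1884 with the control label at 6 h. Estradiol was 1.34-fold higher at 24 h and the estradiol label 1.41-fold higher at 6 h, both under the 2-fold rule. A second probe set for the same transcript, X86086_at, was above the floor only with estradiol at 24 h, at 115, against 64.3 in the control, and read 83.1 with the estradiol label and 52.7 with the control label at 6 h.

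Anxa2, the partner of S100a10, went in opposite directions at the 2 times, under 2-fold in each. Its probe set L13039_s_at read 5031 with estradiol and 4185 with vehicle at 24 h, a log2 difference of 0.27. At 6 h it read 2210 with the estradiol label and 3597 with the control label, a log2 difference of -0.70. The array labelled estradiol at 6 h was the lowest of the 4.

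Anxa5, which binds phosphatidylserine and is used to stain dying cells, also went in opposite directions, in both of its probe sets. The probe set D42137exon_s_at read 2920 with estradiol and 4582 with vehicle at 24 h, and 2699 with the estradiol label and 2179 with the control label at 6 h. The probe set AF051895_at read 917 with estradiol and 1202 with vehicle at 24 h, and 1212 with the estradiol label and 771 with the control label at 6 h. Both were lower with estradiol at 24 h, by log2 differences of -0.65 and -0.39, and both higher with the estradiol label at 6 h, by 0.31 and 0.65. Anxa7 stood above the floor only with estradiol at 24 h, at 95.7, against 64.8 in the control, and read 68.0 with the estradiol label and 35.0 with the control label at 6 h. That value was under the floor of the control array, so no fold is given.

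**Figure D2:**
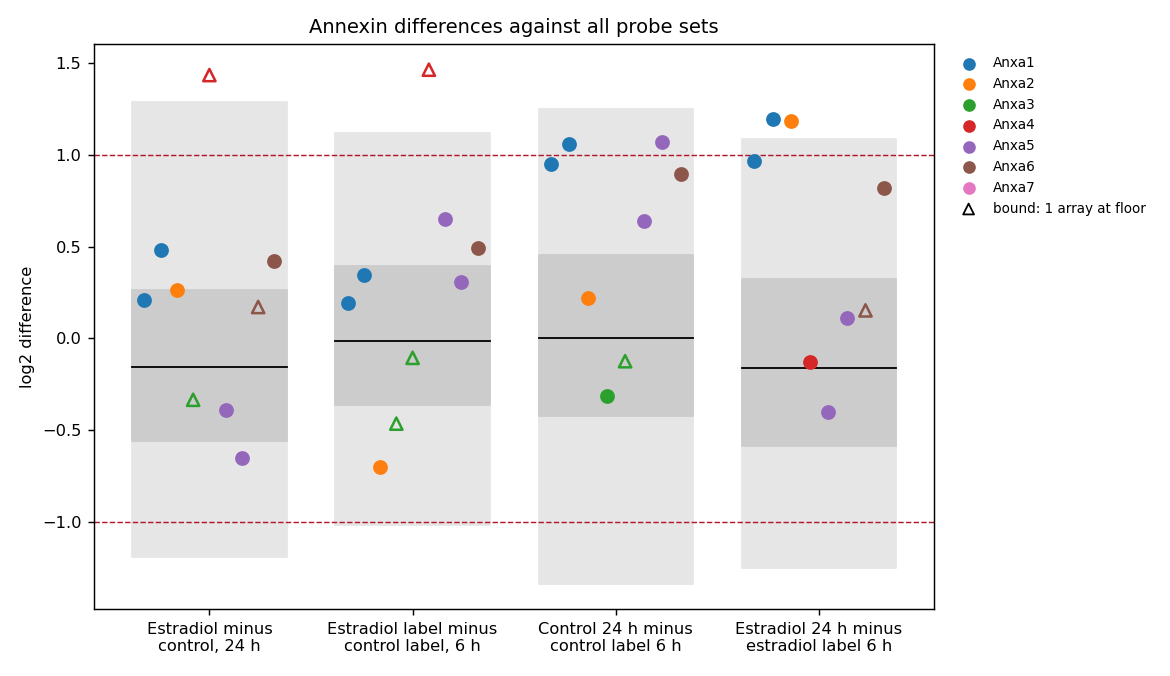
Log2 differences of the annexin probe sets in the 4 comparisons named on the axis, first array minus second; filled circles were above the floor on both arrays and open triangles are bounds, the dark band spans the 25th to 75th and the light band the 5th to 95th percentile of all probe sets above the floor on both arrays, the black line is their median and the dashed lines mark 2-fold. Anxa4 stands at 1.44 and 1.46 in the estradiol comparisons, Anxa7 has no point because no fold could be given, and both Anxa1 probe sets and X86086_g_at of Anxa6 stand between 0.82 and 1.20 in both comparisons of 24 h with 6 h.

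Anxa1, Anxa2 and Anxa6 were higher on both arrays at 24 h than on both arrays at 6 h, and so was the Anxa5 probe set D42137exon_s_at. This made 5 of 6 probe sets, against 17% of all 4267 probe sets above the floor on every array. The reverse order held for 0 of the 6, against 19.2% of all. No annexin among the 6 was higher on both arrays labelled estradiol than on both controls, against 8.86% of all, nor lower, against 15.3%. The 6 probe sets belong to 4 genes and were hybridised to the same 4 arrays, so they are not independent. Spiked-in control transcripts also differed between the times, by their geometric mean over 9 probe sets. It was 1.75-fold higher on the control array at 24 h than at 6 h, and 3.11-fold higher between the arrays labelled estradiol. The spiked-in transcripts differed within the treatment pairs too. Their ratio of estradiol to control was 1.35 at 24 h, and that of the estradiol label to the control label was 0.76 at 6 h. The part of these differences in the annexin values was not tested.

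The controls, both given vehicle, differ in time and in the day of scanning. Between them 2 of 8 annexin probe sets were called higher at 24 h and 0 lower, against 9.1% and 10.1% of all 5749. Anxa1 was 2.08-fold higher by rc_AI171962_s_at and 1.93-fold higher by S57478cds_s_at, and Anxa5 was 2.10-fold higher by D42137exon_s_at and 1.56-fold by AF051895_at. Anxa6 was 1.86-fold higher by X86086_g_at and Anxa2 1.16-fold higher. The median of the 7 annexin probe sets measured on both controls was 0.89 on the log2 scale, against 0.00 for all 4681. Between the arrays labelled estradiol, 2 of 8 were called higher at 24 h and 0 lower, against 6.74% and 9.78% of all 5622. Anxa1 was 2.29-fold higher by rc_AI171962_s_at and 1.96-fold higher by S57478cds_s_at, Anxa2 was 2.28-fold and Anxa6 1.77-fold higher, and the Anxa5 probe sets were 1.08-fold higher and 1.32-fold lower. The median of 7 was 0.82, against -0.16 for all 4763. These comparisons use the same arrays as those of treatment and rest on the 6 h labels, which Igf1, Pgr, S100g and Hsd11b2 go against.

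The time term of the limma fit, read after the signals had been seen, gave Anxa1 an effect of 1.13 ± 0.34 for rc_AI171962_s_at and 0.96 ± 0.34 for S57478cds_s_at on the log2 scale (SE). Their unadjusted p-values were 0.0291 and 0.0466, and both adjusted p-values from limma were 0.94. Anxa6 had an effect of 0.86 ± 0.34 with an unadjusted p of 0.0638, by X86086_g_at. Limma called 0 of 6157 probe sets for time, that is 0%, and 219 had an unadjusted p under 0.05.

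Genes whose products bind annexins or act through them were compared by their brightest probe set. Of 28 listed genes 17 were on the array and 14 could be compared. At 24 h 2 were called higher with estradiol, S100a10 and Capn1, and 1 lower, Plat, against 9.37% and 8.43% of 3406 genes. At 6 h 0 of 14 were called, against 6.84% higher and 5.51% lower among 3378 genes. The list's median log2 difference was 0.04 at 24 h and 0.33 at 6 h, against -0.17 and -0.01 over all genes compared.

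S100a10, the light chain that joins a pair of Anxa2 molecules, was the partner with the largest difference at 24 h. It read 4233 with estradiol and 1080 with vehicle at 24 h, and 2532 with the estradiol label and 1596 with the control label at 6 h. It was 3.92-fold higher at 24 h and 1.59-fold higher at 6 h, with both arrays labelled estradiol above both controls. This order held for 8.86% of all 4267 probe sets above the floor on every array. Anxa2 itself was 1.20-fold higher at 24 h and 1.63-fold lower at 6 h, so the messages of the complex's chains did not differ alike. Plat, the tissue plasminogen activator that the complex carries, read 1029 with estradiol and 2160 with vehicle at 24 h, 2.10-fold lower, and 1955 with the estradiol label and 1628 with the control label at 6 h. With arrays scaled to a common median Plat was under 2-fold at 24 h, at a log2 difference of -0.93, and against the control array at 6 h it was -0.66. Plau, the urokinase activator, was 1.81-fold lower at 24 h and not called.

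Capn1, the large subunit of mu-calpain, a calcium-activated protease, read 1286 with estradiol and 378 with vehicle at 24 h, and 971 with the estradiol label and 974 with the control label at 6 h. It was 3.40-fold higher at 24 h, and the control array at 24 h stood below the other 3. Against the control array at 6 h the log2 difference was 0.40. Pla2g4a, the cytosolic phospholipase that Anxa1 is known to inhibit, was not called in either comparison. It read 526 with estradiol and 831 with vehicle at 24 h, and 456 with the estradiol label and 282 with the control label at 6 h. Sri, which encodes sorcin, was 1.61-fold higher at 24 h, and was not called. S100a11, Fpr1 and Fpr2 were not analysed here.

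**Figure D3:**
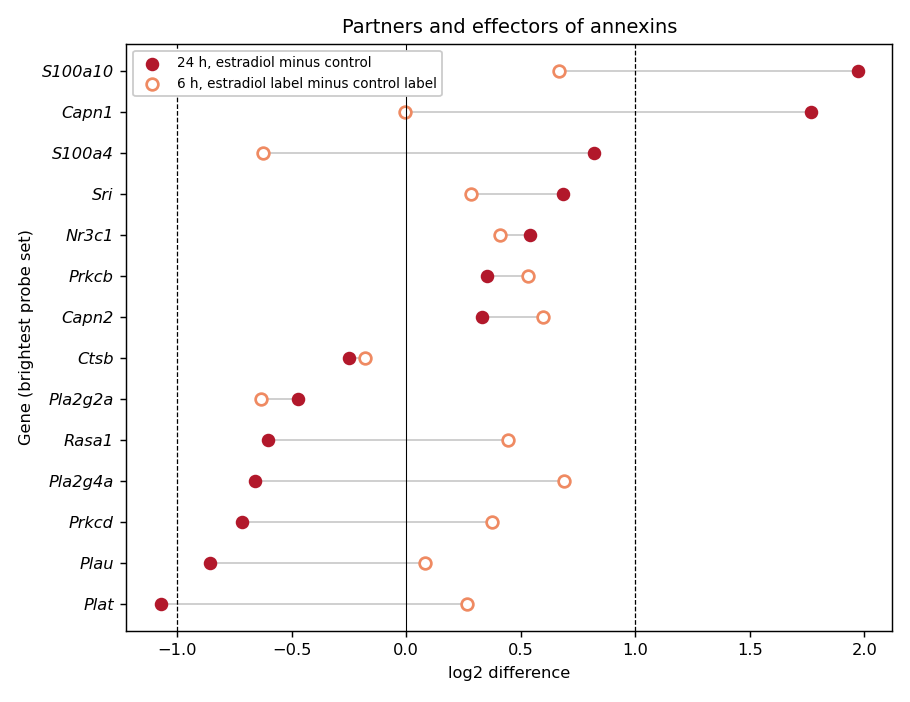
Log2 differences of 14 partner and effector genes of annexins, for the array of estradiol minus control at 24 h (filled) and the estradiol label minus the control label at 6 h (open), by the brightest probe set of each gene; dashed lines mark 2-fold and the 6 h value of Rasa1 is a bound. S100a10 and Capn1 lie past the line on the right at 24 h and Plat past it on the left, and no 6 h value passes either line.

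Markers of other cell types were set beside the annexins, since RNA of whole tissue cannot tell fewer cells of a type from less RNA per cell. Over all genes, 9.37% were called higher and 8.43% lower at 24 h, and 6.84% and 5.51% at 6 h. These shares stand beside every marker count below. Of 10 epithelial markers 6 were on the array, and 5 were called higher and 0 lower with estradiol at 24 h. Muc1 was 1.45-fold lower and not called. The summed signal of the 6 was 3659 with estradiol and 1169 with vehicle at 24 h, and 657 with the estradiol label and 1788 with the control label at 6 h. At 6 h 4 of the 6 were under the floor with the estradiol label and 1 with the control label. Of the 5 that could be compared at 6 h, 3 were called lower and 0 higher with the estradiol label. Of the 7 granulocyte and mast cell markers on the array, 7 were under the floor with estradiol and 6 with vehicle at 24 h, and 7 were under it on each array at 6 h, among them S100a8 and S100a9. The 10 macrophage and leukocyte markers went both ways at 24 h, where 3 were called higher with estradiol, Lyz2, Coro1a and Fcgr2b, and 4 lower, Cd53, Cd74, RT1-Da and RT1-Ba. At 6 h 0 were called higher and 2 lower with the estradiol label, Coro1a and Fcgr2b. Their summed signals, which a few bright probe sets dominate, were 7636 with estradiol and 10368 with vehicle at 24 h, and 8766 with the estradiol label and 11157 with the control label at 6 h. Of the 4 endothelial markers 1 was called lower with estradiol at 24 h, Flt1, with a list median of -0.72 on the log2 scale. At 6 h 1 was called lower with the estradiol label, Kdr, while the other 3 were higher and not called, with a list median of 0.34. Their sums were 773 with estradiol and 1362 with vehicle at 24 h, and 1051 with the estradiol label and 1336 with the control label at 6 h, where Kdr alone gave 185 with the estradiol label and 711 with the control label. The 2 blood cell markers summed to 9067 with estradiol and 13031 with vehicle at 24 h, and to 5936 with the estradiol label and 9730 with the control label at 6 h. The part of epithelial, leukocyte, endothelial and blood cells in the annexin signals was not tested.

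**Figure D4:**
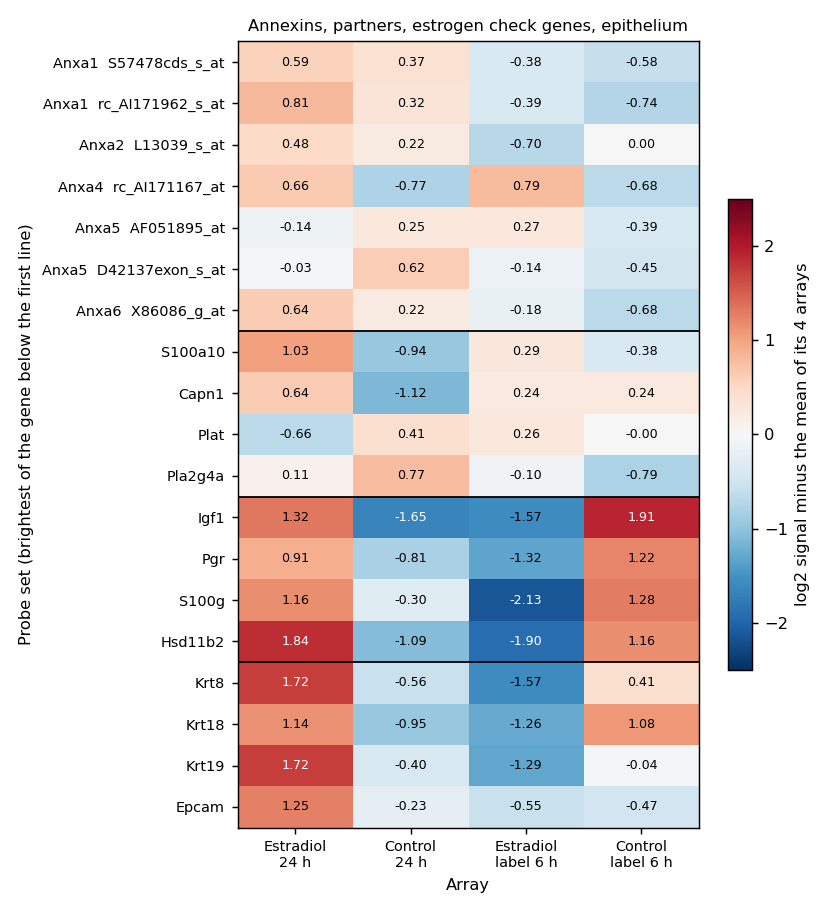
Log2 signal of each probe set minus its mean over the 4 arrays, with signals under the floor set to the floor; columns are the arrays and the colour scale and printed values are in log2 units. Igf1, Pgr, S100g, Hsd11b2 and Krt18 are high with estradiol at 24 h and with the control label at 6 h. The other epithelial markers shown are also high with estradiol at 24 h. With the control label at 6 h Krt8 is at 0.41, Krt19 at -0.04 and Epcam at -0.47, and Cldn3 and Muc1 are not shown. Anxa4 is high on both arrays labelled estradiol, at 0.66 and 0.79.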

How the data were processed

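Total RNA of rat myometrium was measured on 4 RG_U34A arrays, 1 per group. The deposited table holds intensity values, 1 per probe set and array, that the authors made with MAS5 per the submitters' processing notes. The MAS5 version is not given in the sources used here. Deposited columns had a 2% trimmed mean of about 500. After leaving out 59 Affymetrix controls, 8740 probe sets were scaled to that trimmed mean again, raised to a floor at the 40th percentile of each array and turned to log2. The platform annotation named a single gene for 7018 probe sets, more than 1 for 308 and no gene for 1473. All 11 annexin probe sets matched RefSeq by gene identifier. RefSeq also lists pseudogenes of Anxa2 and Anxa7, and whether the probes match them was not tested. Instrument records gave lot, scan day and wash record. Median signals lay between 146 and 171.

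Differences within a pair of arrays have no test. The fit of all arrays used limma 3.58.1 (lmFit and eBayes) in R 4.3.3, with Benjamini-Hochberg adjustment at 0.05, on the 6157 probe sets above the floor on at least 1 array. The calls and the fit were also run on simulated arrays, with independent noise and the same added difference at both times. In the data 212 probe sets were called in opposite directions at the 2 times, so that run does not give the error rates here. The annexins and gene lists were chosen with earlier results of these data known. The genes named were all annexins and their probe sets, partner genes past 2-fold with S100a10, S100a11, Fpr1, Fpr2 and Pla2g4a, the 4 estrogen check genes and the 3 genes nearest to a called annexin. The other partners and markers were named after their values were seen. Alternatives were unscaled deposited values, quantile normalization, a common median, a floor at percentile 20 or 60, a pseudocount of 32, a 1.5-fold or 3-fold rule, the other control or both averaged, probe sets averaged per gene, and no probe sets ending in _s_at or _x_at. For limma they were no filter on dim probe sets and no time term.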

Additional observations from a re-analysis of the deposited data

Results flagged for a closer look

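For some genes measured above the floor on every array the difference at 24 h and the difference at 6 h had opposite signs, with each over 0.1 on the log2 scale. The contrast between the times was not tested, since each difference rests on 2 arrays. Subtracting the 6 h difference from the 24 h difference gave 0.97 for Anxa2, from 0.27 and -0.70. It gave -1.04 for Anxa5 by AF051895_at, from -0.39 and 0.65, and -0.96 by D42137exon_s_at, from -0.65 and 0.31. Among the partners it gave -1.35 for Pla2g4a and -1.33 for Plat. Among the genes that estrogen is known to induce it gave 6.45 for Igf1, 4.25 for Pgr, 4.87 for S100g and 5.99 for Hsd11b2, each higher with estradiol at 24 h and lower with the estradiol label at 6 h. Anxa2 shares the signs of these 4, and both Anxa5 probe sets have the opposite signs. None of these annexin differences was called, and the share of all probe sets with opposite signs was not counted.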

How the results depend on the processing

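At 24 h 1 annexin probe set was called, and the count was 2 with the floor at the 20th percentile, with a pseudocount or with the 1.5-fold rule, 0 with the floor at the 60th percentile or the 3-fold rule, 2 against the mean of both controls and 4 against the control array at 6 h. At 6 h 1 was called, and the count was 3 with the lower floor, the pseudocount or the 1.5-fold rule and 0 with the higher floor or the 3-fold rule. Between the controls 2 were called, and the count was 5 with the 1.5-fold rule, 0 with the 3-fold rule or without probe sets ending in _s_at, and 1 with probe sets averaged per gene. Between the arrays labelled estradiol 2 were called, and the count was 4 with a common median or the 1.5-fold rule and 0 with the 3-fold rule or without probe sets ending in _s_at, which leaves out both Anxa1 probe sets and that of Anxa2. The calls added at 24 h and at 6 h by the lower floor and the pseudocount were Anxa3. Between the controls the count was 3 with the lower floor, which added Anxa4 as lower at 24 h, and 3 with a common median, which added the second Anxa1 probe set. Other causes were not tested. The common median moved the median of all probe sets by 0.14 at 24 h and by 0.21 between the arrays labelled estradiol, and their share of calls that were higher from 50.6% to 63.6% and from 40.8% to 63.9%. Quantile normalization moved the median between the arrays labelled estradiol by 0.12 and the share to 53.8%. Of 300 alternative values of single annexin probe sets, 259 kept their side of the rule and their sign, 22 came past 2-fold or the alternative fold, 8 lost the call, and 11 differences that were not called changed sign. Limma called 0 annexin probe sets under every alternative run, for either term. Signals of Anxa3, Anxa4 and Anxa7 lie near the floor, which limits what their folds can show. No paired analysis was possible because each group has 1 array. Leaving out an array leaves the limma fit no residual degree of freedom. Another background correction was not run, since the deposited signals are already corrected.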
